A study of Mus musculus with 16 samples.

Results

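Cortical libraries of 5xFAD mice differed widely in Wfs1, and the 7 libraries with high Wfs1 were compared with the 7 with low Wfs1. The libraries were chosen by their measured Wfs1 level, high above 180 CPM and low below 120 CPM, where CPM is a gene's read pairs per 1000000 counted read pairs of the library. This placed 14 of the 16 libraries and left out 2 with values in between. The mice were heterozygous 5xFAD animals on a C57BL/6-SJL hybrid background, which carry human amyloid precursor protein and presenilin transgenes driven in neurons by the mouse Thy1 promoter and develop amyloid plaques. All of them, the controls included, carried these transgenes. From 2 to 5 months of age they ate a diet with microencapsulated rapamycin, an inhibitor of the kinase mTOR, or a control diet with the carrier alone, and cortex was taken at 5 months. There were 4 groups of 4 libraries. The study's figure legends give 4 mice per group, while its text speaks of cortical samples pooled for sequencing. Each library is taken here as a single mouse. A library is named by a letter for sex (F or M), a letter for diet (C for control, R for rapamycin) and its number.

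Wfs1 encodes wolframin, a glycoprotein of the endoplasmic reticulum membrane that takes part in calcium storage and in the response to unfolded proteins, and its loss causes Wolfram syndrome. In the mouse forebrain Wfs1 is not made evenly. It is a known marker of neurons in parts of the superficial cortex, in field CA1 of the hippocampus and in the ventral striatum and the central amygdala. Many genes of the cortex are graded in this way over areas and layers, so that a piece of tissue carries a profile of the areas, layers and neighboring structures in it.

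Wfs1 lies on chromosome 5 from 36966104 to 36989205 (GRCm38). It ranged from 62.3 to 522 CPM over the 16 libraries, which is 8.39-fold, on 1046 to 10374 read pairs of Wfs1 in a library. The low libraries were MC1 with 62.3 CPM, FC2 with 75.4, FR2 with 76.0, MC2 with 87.0, MR2 with 95.2, MC4 with 98.6 and FR4 with 114 CPM. The high libraries were FR5 with 208 CPM, FC1 with 233, MC3 with 289, MR1 with 341, MR3 with 351, MR4 with 410 and FR1 with 522 CPM. FR4 was the low library nearest to its threshold and FR5 the nearest high one. Between them FC3 at 132 CPM and FC4 at 155 CPM were left out. Across the upper threshold no library lay between FC4 and FR5. Each of the 4 groups held high and low libraries. The values ranged from 75.4 to 233 CPM in the female control group, from 76.0 to 522 CPM in the female rapamycin group, from 62.3 to 289 CPM in the male control group and from 95.2 to 410 CPM in the male rapamycin group. The mean was 336 ± 108 CPM (SD, n = 7) in the high libraries and 86.9 ± 17.2 CPM (SD, n = 7) in the low ones. These values chose the libraries, so that Wfs1 was not tested and was left out of every count below.

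**Figure D1:**
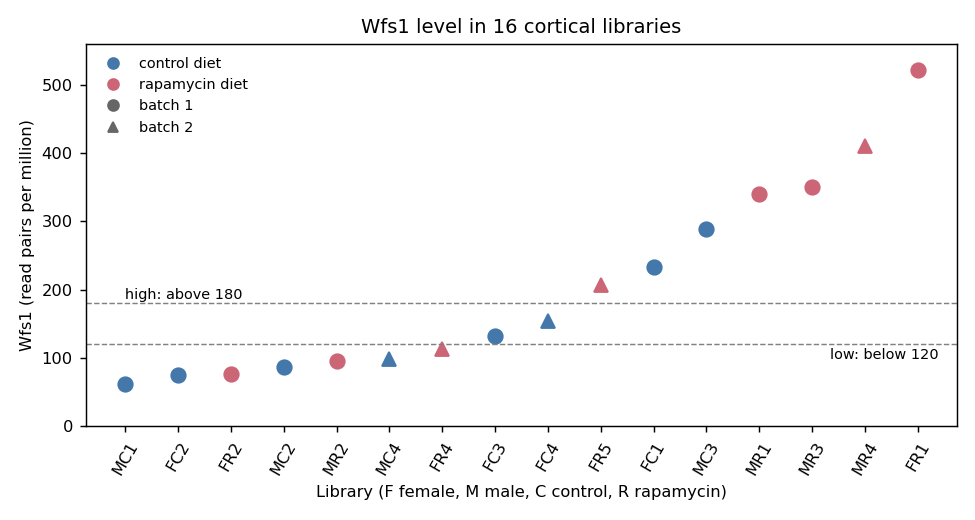
Wfs1 level (CPM, linear axis from 0) in each of the 16 libraries, ordered by level, with colors for the diet, symbols for the batch and dashed lines at the thresholds of 120 and 180 CPM. The 7 low libraries sit between 62.3 and 114 CPM, the 7 high ones between 208 and 522 CPM, and both diets and both batches occur on each side.

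The high libraries came from 5 rapamycin and 2 control mice and the low ones from 3 rapamycin and 4 control mice. Each class held 2 libraries of batch 2 as the labels give it, and 5 of batch 1. The counted read pairs ranged from 16393501 to 20593089 a library, so that 1 CPM stood for 16.4 to 20.6 read pairs. Mitochondrial genes took 3.63% to 6.88% of the read pairs in the high libraries and 2.64% to 6.99% in the low ones. The library labelled male rapamycin 4 (MR4, high) carried the female transcript Xist and had no read pairs on Y-linked genes, and its label was kept. Counts of differing genes are therefore also given without it, but no fit of males alone left it out.

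A further 4 genes had been proposed as companions of Wfs1 with results of these libraries in view, and their values are given as a description with no test. Necab2, a calcium-binding protein of neurons, lay between 74.5 and 171 CPM in the high libraries (median 110) and between 21.4 and 40.4 CPM in the low ones (median 30.0). Nnat, the imprinted gene of the small membrane protein neuronatin, lay between 179 and 397 CPM in the high libraries (median 219) and between 49.9 and 170 CPM in the low ones (median 83.2). For both genes the classes did not overlap and the high libraries lay above the low ones. The exons of Nnat overlap the predicted gene Gm23134, and the counting used no strand. Rspo1, which encodes an R-spondin, a secreted protein that strengthens Wnt signaling, lay between 2.43 and 7.69 CPM in the high libraries (median 5.68) and between 17.4 and 30.1 CPM in the low ones (median 25.3). Lamp5, a brain member of the lysosome-associated membrane protein family, lay between 77.9 and 166 CPM in the high libraries (median 147) and between 192 and 349 CPM in the low ones (median 298). These 2 genes ran the opposite way to Wfs1, again with no overlap. The ratios of the class means, high over low, were 3.64 for Necab2, 2.77 for Nnat, 0.219 for Rspo1 and 0.455 for Lamp5.

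**Figure D2:**
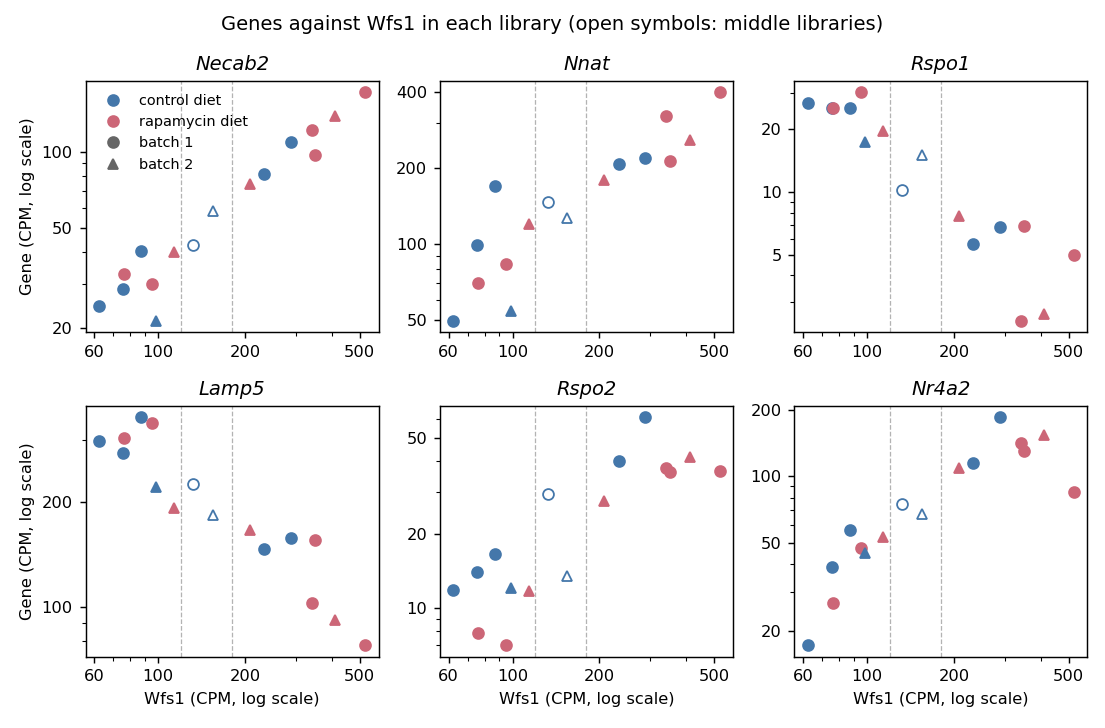
Level of 6 genes (CPM) against Wfs1 (CPM) in the 16 libraries, both axes on log scales, with colors for the diet, symbols for the batch, open symbols for the 2 libraries left out and dashed lines at 120 and 180 CPM. Necab2, Nnat, Rspo2 and Nr4a2 are higher in all 7 high libraries than in any low one, and Rspo1 and Lamp5 are lower in all 7.

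Across all genes the classes were compared with the quasi-likelihood test of edgeR, with batch and diet as terms and Benjamini-Hochberg adjustment over all 16716 genes tested. A p-value here says whether a gene differed between mice split by their measured Wfs1, and nothing of a condition of the study. With Wfs1 left out, 475 of 16715 genes (2.84%) passed both an adjusted p of 0.05 and a 1.5-fold difference, and these are the called genes of the text. They include the 4 proposed genes above. Of these, 274 (1.64%) were higher and 201 (1.2%) were lower in the high libraries. An adjusted p under 0.05 alone was reached by 1047 genes (6.26%), 609 of them higher (3.64%) and 438 lower (2.62%). These last shares are the background for the gene lists below. Before adjustment 3468 genes (20.7%) had a p under 0.05. The median log2 fold change of all genes tested was -0.0023 and the median of its absolute value was 0.14, against 0.95 in the called genes. The classes did not overlap in CPM for 223 genes (1.33%), of which 130 were called (0.778% of the genes tested and 27.4% of the called ones). Without MR4, 432 genes were called and 919 had an adjusted p under 0.05. The count of called genes lay between 329 (without FR2) and 520 (without FR1) when each library was left out in turn. The count under the adjusted p alone fell by more than 1.5 times without FR2, to 576, and without MR2, to 677. The filter on low counts asks for 0.566 CPM in enough libraries of any class. Of the called genes, 18 that were higher reached it in no low library and 10 that were lower in no high library, so that they could enter the test only with a difference. For the other 447 a library of each class reached it. Some of these reached it in too few libraries of the other class to enter the test through that class alone. Of the named genes, Sec14l3 reached it among the low libraries only in MC2 (0.650 CPM). Among the high libraries Hfe2 reached it only in FR5 (1.21 CPM) and Cldn22 only in MR1 and MR3 (0.621 and 0.650 CPM). The p-values measure the spread between libraries, each taken as a mouse.

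**Figure D3:**
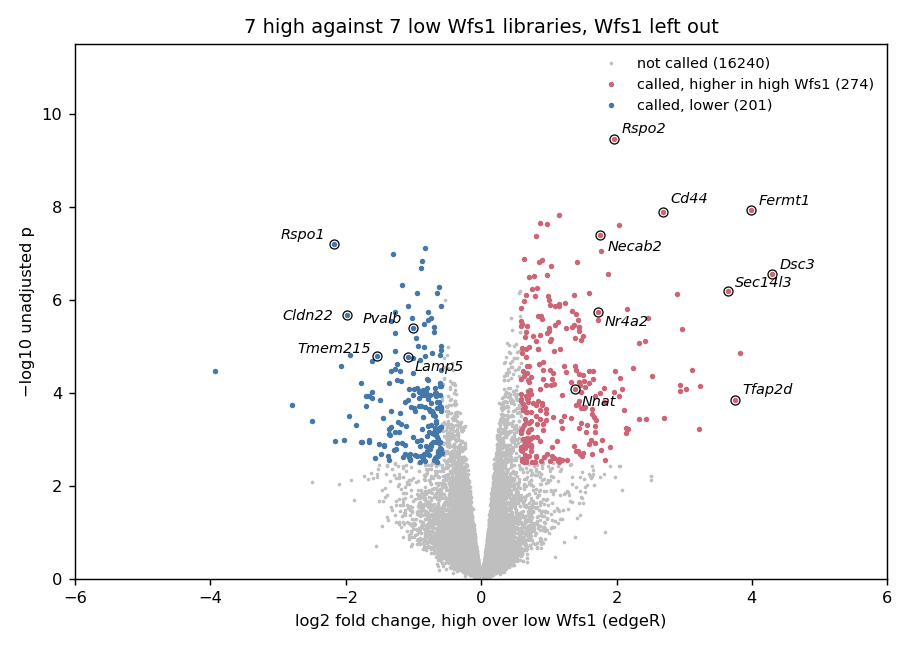
Log2 fold change, high over low Wfs1 libraries, against -log10 of the unadjusted p of edgeR for the 16715 genes tested other than Wfs1, with the 274 called genes that were higher in red, the 201 that were lower in blue and named genes circled. Rspo2 stands at the top with the smallest p, Dsc3 and Fermt1 lie farthest to the right of the named genes, and Rspo1 farthest to the left.

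The gene with the smallest p was Rspo2, the R-spondin related to Rspo1, which is a marker of the basolateral amygdala and was on the amygdala list. It lies on chromosome 15 from 43020811 to 43170818. Its level was between 27.5 and 60.9 CPM in the high libraries (median 37.7) and between 6.99 and 16.6 CPM in the low ones (median 11.8), with a log2 fold change of 1.97 (SE 0.14) and an adjusted p of 5.77e-06 in edgeR. All 7 high libraries were above all 7 low ones. Rspo2 was thus higher and Rspo1 lower in the high Wfs1 libraries, within the same family of Wnt agonists.

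The called genes with the largest increase included the desmosomal cadherin Dsc3, the integrin-binding kindlin Fermt1 and the hyaluronan receptor Cd44. Fermt1 (chromosome 2 from 132904389 to 132945906) lay between 6.29 and 20.3 CPM in the high libraries (median 10.8) and between 0.172 and 1.61 CPM in the low ones (median 0.833). Its log2 fold change was 3.99 (SE 0.37) with an adjusted p of 6.03e-05 in edgeR. Dsc3 lay between 3.22 and 19.8 CPM in the high libraries (median 10.5) and between 0.0568 and 1.90 CPM in the low ones (median 0.357). At 4.30 (SE 0.51) its log2 fold change was the largest of all called genes, with an adjusted p of 2.02e-04 in edgeR. Cd44 (chromosome 2 from 102811141 to 102901665) lay between 8.22 and 20.9 CPM in the high libraries (median 13.4) and between 0.917 and 3.32 CPM in the low ones (median 2.30). Its log2 fold change was 2.68 (SE 0.25) with an adjusted p of 6.03e-05 in edgeR. None of these 3 genes overlapped between the classes, although Dsc3 and Fermt1 were near the limit of counting in most low libraries.

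Of the 10 called genes with the largest increase and a mean of at least 1 CPM, the other 7 were Sec14l3, Mab21l1, Dio3, Gpr101, Cfap58, Ly6g6e and Stpg1. Sec14l3, a lipid-binding protein of the SEC14 family, had a median of 3.96 CPM in the high and 0.417 CPM in the low libraries. Its fitted log2 fold change was 3.65, given as a description since MC2 alone of the low libraries reached the filter level. Mab21l1, a developmental gene, had medians of 5.72 and 0.511 CPM and a log2 fold change of 2.97 (SE 0.43), and its exons overlap those of Nbea. The classes of these genes did not overlap. Cfap58, a protein of cilia and flagella, had medians of 1.75 and 0.268 CPM and a fitted log2 fold change of 2.89, and since no low library reached the filter level it is given as a description. Dio3, the deiodinase that inactivates thyroid hormone, had medians of 4.29 and 0.516 CPM with a log2 fold change of 2.94 (SE 0.55), and the orphan receptor Gpr101 had medians of 3.48 and 0.536 CPM with 2.93 (SE 0.56). Both overlapped between the classes, because FR1 and MR4 were the lowest high libraries for Dio3 and FR5 and MR3 for Gpr101, while MC2 had 2.05 CPM of Dio3 and FC2 had 3.09 CPM of Gpr101. Ly6g6e, of the Ly6 family of membrane-anchored proteins, had medians of 5.14 and 1.02 CPM with a log2 fold change of 2.52 (SE 0.45), and its highest value, 18.5 CPM, was that of FR1, the library with the most Wfs1. Stpg1 had medians of 4.22 and 0.516 CPM with a log2 fold change of 2.47 (SE 0.34) and overlapped between the classes. The exons of Ly6g6e overlap Ly6g6d and those of Stpg1 overlap Nipal3, so that their reads could not be told apart by strand. The adjusted p of these genes in edgeR, Sec14l3 and Cfap58 aside, ran from 6.36e-04 (Stpg1) to 0.00574 (Gpr101).

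The 10 called genes with the largest decrease were Rspo1, Cldn22, Hspb3, Hfe2, Npc1l1, Adam33, Mylk3, Tmem215, Lrg1 and Shisa3. Rspo1 is one of the proposed genes and was described above. The fitted log2 fold changes of the other 9 ran from -1.36 (Shisa3) to -1.98 (Cldn22), and for 4 of the 9 the classes did not overlap. Among called genes of any level, 31 (0.185%) were at least 4-fold higher and 7 (0.0419%) at least 4-fold lower. Tmem215, a gene of the layer 4 list, lay between 1.82 and 6.70 CPM in the high libraries (median 4.01) and between 7.20 and 21.7 CPM in the low ones (median 12.4), with a log2 fold change of -1.54 (SE 0.25) and an adjusted p of 0.00201 in edgeR. Mylk3, a kinase of myosin light chain, lay between 0.642 and 2.72 CPM in the high libraries (median 2.11) and between 3.22 and 6.85 CPM in the low ones (median 5.10), with a log2 fold change of -1.61 (SE 0.32) and an adjusted p of 0.00701 in edgeR. Neither gene overlapped between the classes. The claudin gene Cldn22, whose product is a tight junction protein, had medians of 0.486 CPM in the high and 1.66 CPM in the low libraries. Its fitted log2 fold change of -1.98, like that of Hfe2 below, is a description, since few high libraries reached the filter level. Shisa3 had medians of 0.915 and 2.46 CPM, and its exons overlap Atp8a1. Cldn22 and Shisa3 were separated between the classes too, at levels of few read pairs. The 5 genes that overlapped were the small heat shock protein Hspb3 (-1.93), the iron regulator Hfe2 (-1.71), the sterol transporter Npc1l1 (-1.70), the metalloprotease Adam33 (-1.62) and the secreted glycoprotein Lrg1 (-1.44), given with their log2 fold changes. Lrg1 rested on 1 library more than the others, since MR2 had 10.2 CPM and the other low libraries at most 4.02 CPM. Its adjusted p in edgeR was 0.0306 and rose to 0.128 without MR2, and was also above 0.05 without FR2, MC3, MC4, MR1 or MR4 (0.0541 to 0.0676).

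**Figure D4:**
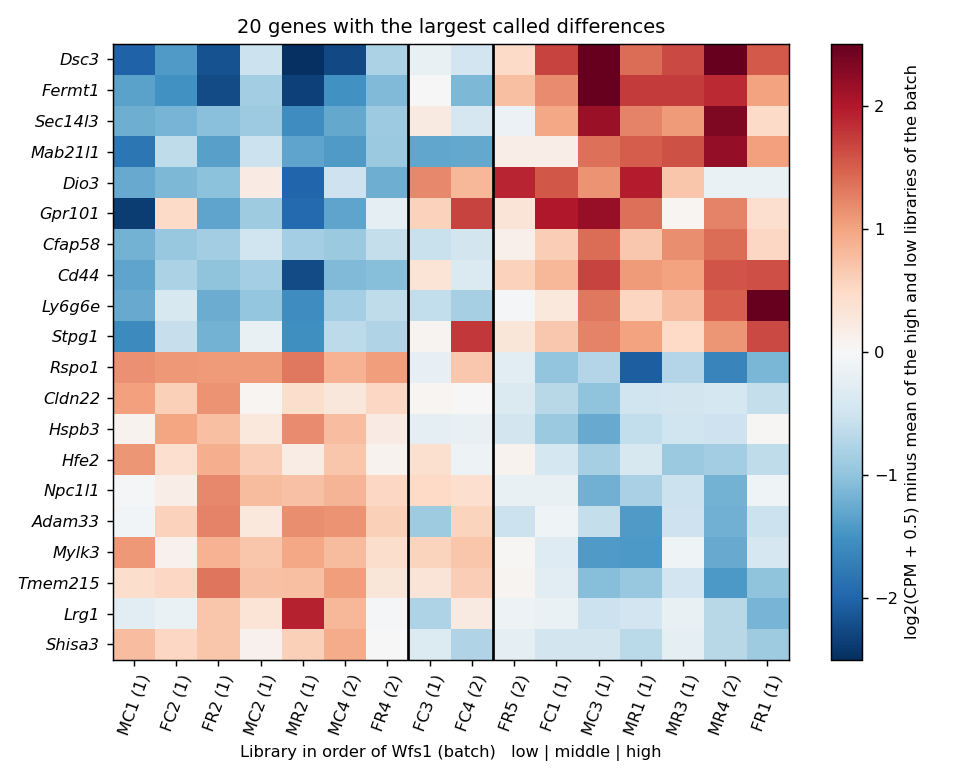
Level of the 10 called genes with the largest increase and the 10 with the largest decrease in each of the 16 libraries in order of Wfs1, as log2(CPM + 0.5) minus the mean of the high and low libraries of the same batch (the number in parentheses). The upper 10 rows turn from blue to red and the lower 10 from red to blue between the low libraries on the left and the high ones on the right, and the 2 libraries left out are shown in the middle.

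Lists of marker genes for layers, areas, neighboring regions and cell types held 271 genes other than Wfs1, of which 266 were tested, and no gene was in more than 1 list. With the proposed genes set aside, the lists held 27 of the 475 called genes. Counts below are of members with an adjusted p under 0.05 in edgeR. Of all genes tested, 3.64% were higher and 2.62% lower at that threshold. The lists were chosen with earlier results of these data known, so that the counts are a description. Whether a list exceeds these shares was not tested. In bulk tissue fewer cells of a type and less RNA per cell cannot be told apart.

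On the list for layer 4, whose neurons receive input from the thalamus, 3 of 6 members were lower in the high Wfs1 libraries and 0 higher, with a median log2 fold change of -0.47. The lower members were Tmem215, the potassium channel Kcnh5 and the nuclear receptor Rorb. Kcnh5 lay between 2.11 and 7.54 CPM in the high libraries (median 5.78) and between 5.90 and 42.7 CPM in the low ones (median 19.5), with a log2 fold change of -1.34 (SE 0.23) and an adjusted p of 0.00312. Rorb had medians of 33.7 and 44.3 CPM and a log2 fold change of -0.60 (SE 0.14), with an adjusted p of 0.0167 that became 0.0509 without FR2 and 0.0688 without MR2. The classes overlapped for both. Scnn1a (-0.33), Hsd11b1 (-0.14) and Whrn (0.21) did not pass.

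In the list for layers 2 and 3, 3 of 10 members were lower and 1 was higher, with a median of -0.30. The lower ones included the transcription factor Pou3f2 (-0.85, SE 0.13, adjusted p = 0.00152) and the lipid transfer domain protein Stard8 (-0.91, SE 0.17, adjusted p = 0.00574). Pou3f2 lay between 11.98 and 23.2 CPM in the high libraries (median 19.5) and between 28.4 and 39.5 CPM in the low ones (median 34.7). Stard8 lay between 13.3 and 28.8 CPM (median 16.4) and between 29.2 and 38.2 CPM (median 35.4), in the same order. Both were separated between the classes. The member that went the other way was Cdh13, a cadherin without a transmembrane domain, with medians of 102 and 48.1 CPM and a log2 fold change of 1.07 (SE 0.17, adjusted p = 0.00172). Cux1 (-0.25) and Cux2 (-0.09), the standard transcription factors of these layers, did not pass.

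The deep layer lists held members that were higher. In the layer 6 list 4 of 10 members were higher and 0 lower, with a median of 0.60, and in the layer 5 list 3 of 10 were higher and 0 lower, with a median of 0.01. The layer 6 members were Moxd1 (0.88, adjusted p = 6.13e-04), the secreted matrix-associated factor Ctgf (0.69, adjusted p = 0.00419), the synaptic complexin Cplx3 (0.63, adjusted p = 0.0240) and the neurotensin receptor Ntsr1 (0.59, adjusted p = 0.0316). Ctgf and Cplx3 are known from the deepest part of layer 6 and the subplate. The count for layer 6 was 2 without FC1, without MC3 and without MR4, since Cplx3 had an adjusted p between 0.0533 and 0.0852 and Ntsr1 between 0.0533 and 0.0677 in these fits. Foxp2 (-0.04), Tbr1 (-0.20) and Tle4 (0.16), transcription factors of the corticothalamic neurons of that layer, did not pass. In the layer 5 list Crym, which binds thyroid hormone, lay between 71.6 and 128 CPM in the high libraries (median 99.8) and between 27.5 and 64.3 CPM in the low ones (median 55.1), with no overlap and a log2 fold change of 1.04 (SE 0.12, adjusted p = 1.55e-04). The transcription factor Bcl11b differed by 0.49 (adjusted p = 0.00308) and Tcerg1l by 0.57 (adjusted p = 0.0343), while Fezf2 (-0.09) and Etv1 (-0.21) did not pass. The call of Tcerg1l did not hold without FC1, FC2, FR2, FR4, FR5, MC1, MR1 or MR2 (adjusted p from 0.0578 to 0.127), and the layer 5 count was then 2.

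On the list for the lateral cortex, claustrum and endopiriform nucleus 4 of 9 members were higher in the high Wfs1 libraries and 0 lower, with 9 of 9 log2 fold changes above 0 (median 0.58). Their summed level lay between 566 and 775 CPM in the high libraries and between 373 and 477 CPM in the low ones, without overlap. Nr4a2, the nuclear receptor Nurr1 of claustrum, subplate and lateral deep layers, differed most. It lies on chromosome 2 from 57106830 to 57124003 and lay between 84.6 and 185 CPM in the high libraries (median 130) and between 17.2 and 57.3 CPM in the low ones (median 44.8), with a log2 fold change of 1.72 (SE 0.23) and an adjusted p of 5.46e-04. Latexin, encoded by Lxn and known as a marker of lateral cortical neurons, lay between 27.9 and 37.1 CPM (median 33.9) and between 19.2 and 27.2 CPM (median 22.4), in the same order, with a log2 fold change of 0.46 (SE 0.09) and an adjusted p of 0.00767. These 2 genes were separated between the classes. The exons of Lxn overlap Gfm1. The netrin relative Ntng2 (0.58, adjusted p = 0.00253) and the LIM-domain gene Lmo3 (0.36, adjusted p = 0.0338) overlapped, and Lmo3 passed in 8 of the 14 fits that left out 1 library (0.0555 to 0.106 without FC1, FR4, FR5, MC2, MC3 or MR1). The count of this list was 6 without MR4, and 1 in control mice and in rapamycin mice alone. Among females alone 5 of 9 members were higher (median 1.03). Among libraries labelled male, MR4 included, 1 of 8 was higher (median 0.27). The difference between the labelled sexes was not tested for the list. In the retrosplenial list 0 of 4 members passed in edgeR and in DESeq2, with 1 under an unadjusted p of 0.05 and a median of -0.12, and 1 was higher without MC1.

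The lists for structures that border the cortex were compared next. On the amygdala list 3 of 5 tested members passed as higher, Tfap2d among them, and 0 as lower, with summed levels of 39.6 to 74.7 CPM in the high and 9.74 to 27.0 CPM in the low libraries. Most of that sum was Rspo2, described above. The transcription factor Tfap2d was at 0 in 4 of the 7 low libraries and at most 0.250 CPM in the other 3, and lay between 0.113 and 1.41 CPM in the high ones (median 0.321), which is a few read pairs in either class. No low library reached the filter level, so that Tfap2d was tested only through the high libraries and is given as a description. Cyp26b1, an enzyme that degrades retinoic acid, differed by 1.05 (SE 0.27, adjusted p = 0.0314) with overlap. The count of this list was 1 without FC1 and without FR5, and 2 without FR1, FR2, MC3 or MR2, because Cyp26b1 missed the threshold (0.0599 to 0.101 without FC1, FR2, FR5, MC3 or MR2) or Tfap2d was too low to be tested.

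On the striatum list 3 of 13 members were higher and 0 lower, with a median of 0.57. The nuclear receptor Rxrg lay between 3.96 and 8.11 CPM in the high libraries (median 6.06) and between 1.49 and 3.32 CPM in the low ones (median 1.78), with a log2 fold change of 1.59 (SE 0.20) and an adjusted p of 3.33e-04. The dopamine receptor Drd1 lay between 9.36 and 16.5 CPM (median 12.3) and between 5.18 and 8.59 CPM (median 6.60), with a log2 fold change of 0.91 (SE 0.15) and an adjusted p of 0.00247. Both were separated between the classes. Gpr6 differed by 0.95 (adjusted p = 0.0133) and missed the threshold without MC3 (0.0541), where the count was 2. The abundant striatal genes Penk (-0.04) and Ppp1r1b (-0.05) did not pass, and the summed level of the list overlapped, with 253 to 451 CPM in the high and 227 to 348 CPM in the low libraries.

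Other neighboring regions showed single genes or none. Of the hippocampus list 1 of 9 tested members was higher, Fibcd1, a membrane receptor and marker of field CA1, with medians of 21.9 and 8.35 CPM and a log2 fold change of 1.38 (SE 0.20, adjusted p = 7.71e-04). The markers of the dentate gyrus Prox1 (-0.24) and C1ql2 (-0.94, adjusted p = 0.138) did not pass, nor did any other member. Of the olfactory bulb list the cadherin-related Cdhr1 was higher (1.59, adjusted p = 0.00458) and Doc2g lower (-0.85, adjusted p = 0.0386), and Doc2g passed in 4 of the 14 fits that left out 1 library. Of the thalamus list 0 of 9 members passed in edgeR, with 2 under an unadjusted p of 0.05, and 1 passed as lower in DESeq2. Leaving out FR1, FR4 or MR4 also gave 1 lower in edgeR.

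**Figure D5:**
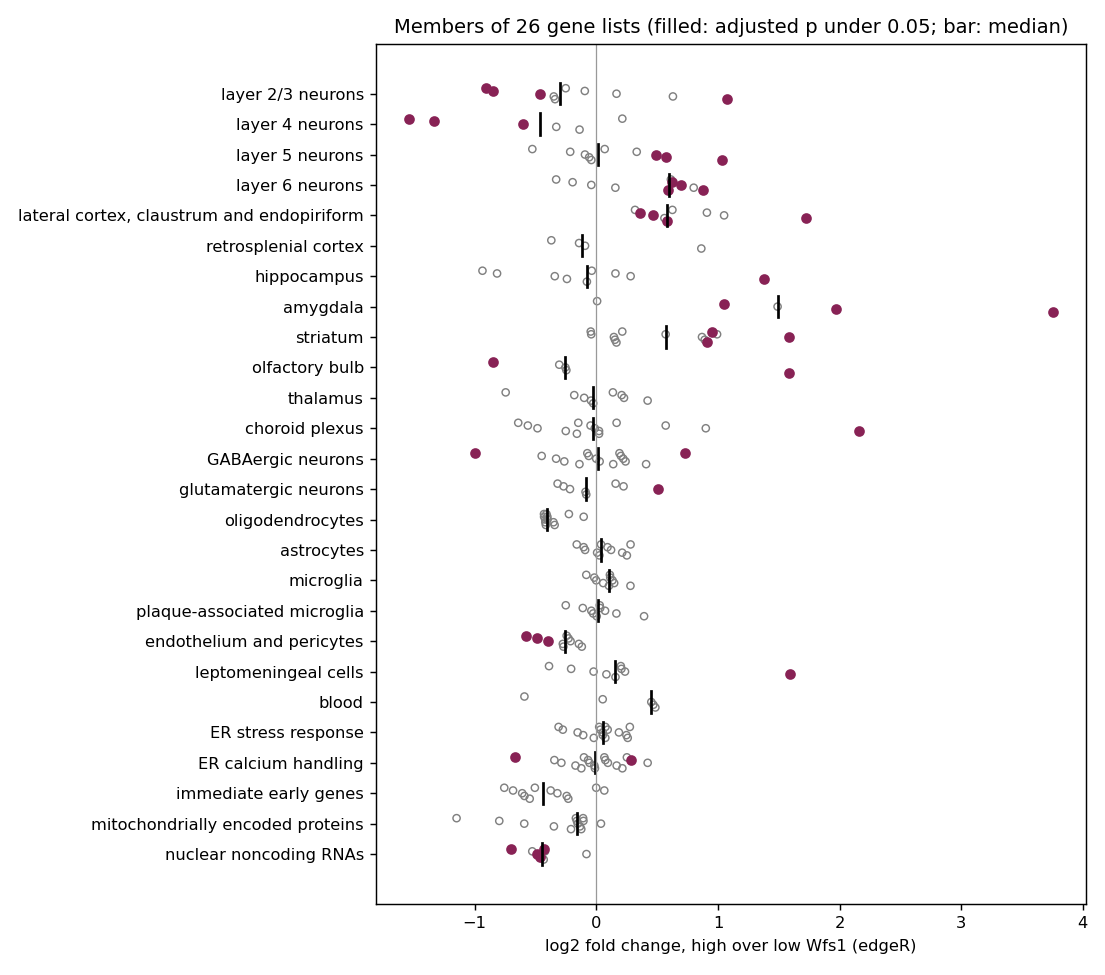
Log2 fold change, high over low Wfs1 libraries, of each tested member of 26 gene lists, with filled points for an adjusted p under 0.05 in edgeR, open points for the others and a bar at the median of the list. The lateral, amygdala and layer 6 lists lie mostly to the right of 0, the layer 4 list mostly to the left, and the glial and microglial lists close to 0 except for the oligodendrocytes at -0.41.

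Among interneuron markers Pvalb, the calcium-binding protein parvalbumin, was lower and the extracellular glycoprotein Reln higher in the high Wfs1 libraries, and the other 14 of 16 members of the GABAergic list did not pass. Pvalb (chromosome 15 from 78191114 to 78206400) lay between 32.1 and 55.6 CPM in the high libraries (median 53.4) and between 48.6 and 128 CPM in the low ones (median 94.1), with a log2 fold change of -1.002 (SE 0.146) and an adjusted p of 7.99e-04. The overlap came from MC4 at 48.6 CPM. Reln lay between 78.1 and 152 CPM (median 116) and between 44.1 and 104 CPM (median 82.5), with a log2 fold change of 0.73 (SE 0.16) and an adjusted p of 0.0103. Gad1 (-0.06), Gad2 (0.22), Sst (0.19) and Vip (-0.33) did not pass, and the summed level of the list was 1725 to 2015 CPM in the high and 1686 to 2038 CPM in the low libraries. Of the glutamatergic list 1 of 8 members, the transcription factor Neurod6, was higher (0.51, adjusted p = 0.0434), a call that held in 4 of the 14 fits that left out 1 library.

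Oligodendrocyte markers were all on the lower side without passing the test. The log2 fold changes of the 12 members ran from -0.10 (Ugt8a) to -0.43 (Mbp), with a median of -0.41, and 0 passed in edgeR and in DESeq2, with 10 under an unadjusted p of 0.05. Their summed level was 3955 to 6549 CPM in the high and 4715 to 10111 CPM in the low libraries. Leaving out MC3 gave 6 lower members, and leaving out MC4 or MR4 gave 1. Leaving out FR2 reduced the members under an unadjusted p of 0.05 to 1 and the median to -0.27. Among females alone 11 of 12 members were lower (median -0.65). Among libraries labelled male, MR4 included, 0 were lower (median -0.12, with 0 under an unadjusted p of 0.05). The difference between the labelled sexes was not tested for the list. With no filter on low counts 8 of 12 were lower. The vascular list had 3 of 10 members lower and 0 of 10 above 0, with a median of -0.26. These were the transporter Slco1a4 (-0.58, adjusted p = 0.00752), the membrane-anchored Ly6c1 (-0.49, adjusted p = 0.00997) and the pericyte regulator Rgs5 (-0.40, adjusted p = 0.00829), and the count was 3 whichever of the 14 libraries was left out. It was 0 without the diet term and in control, rapamycin or female libraries alone, and 1 in male libraries alone. All 3 overlapped between the classes.

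No member of the astrocyte and microglial lists passed. In edgeR and in DESeq2 these were 0 of 11 astrocyte, 0 of 10 microglia and 0 of 10 plaque-associated microglia members, with 1, 1 and 0 under an unadjusted p of 0.05 in edgeR and medians of 0.04, 0.11 and 0.02. These counts stayed at 0 whichever of the 14 libraries was left out. Gfap, the intermediate filament of reactive astrocytes, differed by 0.12 and Itgax, a marker of plaque-associated microglia, by 0.03. Among lists of tissues other than the brain parenchyma, the blood list had 0 of 5 members passing, by either tool or at an unadjusted p under 0.05. The leptomeningeal list had 1 of 9, the matrix proteoglycan Dcn (1.59, SE 0.28, adjusted p = 0.00312, medians 34.99 and 10.1 CPM), while the collagens Col1a1 (0.21), Col1a2 (0.08) and Col3a1 (-0.21) did not pass. The choroid plexus list had 1 of 14, the claudin Cldn1, which lay between 6.04 and 11.6 CPM in the high libraries (median 10.2) and between 0.893 and 5.62 CPM in the low ones (median 2.23) without overlap, with a log2 fold change of 2.16 (SE 0.29) and an adjusted p of 4.94e-04. The defining choroid plexus genes Ttr (-0.25) and Folr1 (-0.64) did not pass. The summed level of that list was 45.7 to 223 CPM in the high libraries and 27.2 to 2116 CPM in the low ones, where MC4 had the highest value.

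Genes of the pathway of wolframin itself were compared next. Of the 16 genes of the endoplasmic reticulum stress response 0 passed in edgeR, with 6 under an unadjusted p of 0.05 and a median of 0.05. In DESeq2 1 passed as higher. The chaperone Hspa5 differed by 0.28 (adjusted p = 0.131), the transcription factor Atf6 by -0.28 (adjusted p = 0.112) and Ddit3 by -0.11 (adjusted p = 0.522). The summed level was 1316 to 1537 CPM in the high and 1287 to 1527 CPM in the low libraries. Leaving out FR4 gave 1 higher and 1 lower member, MC2 gave 1 higher and MR3 gave 1 lower. Of the 18 genes of calcium handling in the endoplasmic reticulum, the calcium sensor Ncs1 was higher (0.29, SE 0.07, adjusted p = 0.0268) and the ryanodine receptor Ryr1 lower (-0.67, SE 0.13, adjusted p = 0.00661), with a list median of -0.01. Ncs1 lay between 355 and 491 CPM in the high and between 312 and 406 CPM in the low libraries and missed the threshold without FC2, FR2, MC3 or MR2 (0.0501 to 0.101). Ryr1 lay between 5.72 and 22.03 CPM and between 7.73 and 40.1 CPM, and its highest values were those of batch 2. The inositol trisphosphate receptor Itpr1 (-0.29), the pump Atp2a2 (-0.07) and Cisd2 (-0.02), whose loss causes another form of Wolfram syndrome, did not pass.

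Lists that follow the state of the tissue or the RNA had few members past the adjusted threshold. Of the immediate early genes 0 of 12 passed in edgeR and in DESeq2, with 3 under an unadjusted p of 0.05, a median of -0.44 and 1 of 12 above 0. Fos differed by -0.55 and Arc by -0.51, with adjusted p values of 0.414 and 0.295, and leaving out FR5 gave 1 lower member. The median was -0.11 with 0 under an unadjusted p of 0.05 without MR2, and -0.59 with 7 without FR2. With no filter on low counts 4 were lower. Of the 13 mitochondrially encoded genes 0 passed in edgeR and in DESeq2, with 3 under an unadjusted p of 0.05 in edgeR, and leaving out FC1, MC2 or MR2 gave 1 lower. Of 8 noncoding RNAs kept in the nucleus 4 were lower and 0 higher, with a median of -0.45. They were Snhg11 (-0.49, adjusted p = 0.0220), Miat (-0.43, adjusted p = 0.0354), Meg3 (-0.47, adjusted p = 0.0433) and Malat1 (-0.70, adjusted p = 0.0468), all of which have exons that overlap other genes. Malat1 lay between 123 and 362 CPM in the high and between 150 and 1096 CPM in the low libraries, and the highest value of each class was in batch 2. The count of this list depended on single libraries. It was 0 without FR4, 1 without FC1, FR2, FR5, MC1, MR1, MR2 or MR4, and 2 without MC2. The libraries also differed in the slope of expression on exon length, a trend of each library's log2 CPM deviation per doubling of exon length, from -0.136 to 0.0107 in the high and from -0.145 to 0.131 in the low libraries. With the slope as a further term in edgeR, 464 of the 475 called genes were called again. With the mitochondrial share of read pairs in its place, 377 of them were.

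The differences were then read within batches, diets and sexes. The called genes were chosen on the same libraries, so that these values are a description. The median absolute difference of their mean log2 level was 0.79 within batch 1, with 5 high and 5 low libraries, and 0.70 within batch 2, with 2 and 2. All 475 had the direction of the main fit within batch 1, and 459 had it within batch 2. Separate edgeR fits were made among control mice, rapamycin mice, females and males, with MR4 among the males as labelled. These subsets hold 6 to 8 libraries, and 149, 68, 321 and 236 genes were called in them. Rspo2 was called in each, with log2 fold changes of 1.85 in control mice, 2.01 in rapamycin mice, 1.66 in females and 2.28 in males. Dsc3, Fermt1, Cd44, Nr4a2, Crym and Cldn1 were likewise past the adjusted threshold in all 4 subsets. Pvalb passed in control mice (-0.96, adjusted p = 0.0157) and in females (-1.15, adjusted p = 0.00236), and its values in rapamycin mice (-1.10, adjusted p = 0.0589) and in males (-0.91, adjusted p = 0.0910) had the same sign. Kcnh5 differed by -1.75 (adjusted p = 0.00738) in control mice and by -1.02 (adjusted p = 0.205) in rapamycin mice. In these 4 fits, in the same order, the layer 4 list had 2, 0, 1 and 2 lower members, the layer 6 list 2, 1, 3 and 0 higher members and the striatum list 1, 1, 4 and 1 higher members. Whether the contrast itself differed was tested with an interaction term in edgeR. For diet, 0 of 17236 genes had an adjusted p under 0.05 (smallest 1.00), with 287 under an unadjusted p of 0.05. For sex as labelled, 0 of 17236 had one (smallest 0.132), with 1621 under an unadjusted p of 0.05.

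The 2 libraries left out took no part in choosing the called genes, and both were female control mice. On a scale from the mean of the low (0) to the mean of the high libraries (1) of the same batch, in log2(CPM + 0.5), Wfs1 stood at 0.361 in FC3 and at 0.375 in FC4. The median over the 475 called genes was 0.754 in FC3 and 0.424 in FC4. In FC3, 260 of the genes lay between the means, 169 at or past the high mean and 46 at or past the low mean. In FC4 these counts were 282, 93 and 100. The scale of FC4 rested on 2 high and 2 low libraries, whose means had the direction of the main fit for 459 of the 475 genes. FC3 was thus nearer to the high libraries over the called genes than by its Wfs1. Rspo2 was 29.4 CPM in FC3 and 13.5 CPM in FC4, the former within the range of the high libraries and the latter within that of the low ones, and Nr4a2, at 75.3 and 67.6 CPM, lay between the classes in both.

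Since more of the high libraries came from rapamycin mice, the diet comparison over all 16 libraries was fitted in edgeR with and without log2 Wfs1 as a term beside batch. Without it 363 genes were called between rapamycin and control mice, and with it 530. Of these, 299 were called in both, which is most of the first set, 64 were called only without the Wfs1 term and 231 only with it. Both fits used the same libraries, and the filter kept 16552 and 16929 genes.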

How the data were processed

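Poly(A) RNA of cortex was sequenced as paired-end reads. The read pair counts per gene were deposited by the authors for 16 libraries, raw and not normalized, over 47593 genes. Per the labels and the file headers they came from Trimmomatic 0.39, HISAT2 2.2.1 against GRCm38 (mm10) and featureCounts 2.0.3 on exons by gene name, without strand. Trim Galore and FastQC 0.11.9 are also named in the submitters' processing notes. Read pairs that matched several places or genes were left out, so genes with close copies can be undercounted.

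CPM is the count over the column total times 1000000. The counts were analyzed in R 4.3.3 with edgeR 4.0.16 (TMM factors, filterByExpr with a minimum count of 10, glmQLFit and glmQLFTest) on 14 libraries with the terms batch, diet and Wfs1 class. The residual degrees of freedom were 10, the common biological coefficient of variation was 0.169 and the genes kept held 99.9% of the read pairs. Adjusted p values followed Benjamini and Hochberg, taken over the whole set of tested genes. CPM with TMM factors gave the same class for all 16 libraries. On simulated counts with 200 changed genes among 16716, edgeR recovered 166 with 7 false calls (33 of 50 at 1.5-fold and 48 of 50 at 4-fold). For both tools recovery was counted at an adjusted p under 0.05, without the fold threshold of the called genes. DESeq2 1.42.0 recovered 177 with 25 false calls. Libraries of a group differed by a chi-square per degree of freedom of 12.1 to 129, more than counting noise alone would give. Pairs of libraries from different groups were not compared by this measure.

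The thresholds, the 5 marker genes and the gene lists were chosen with earlier results of these data known. The text names the markers, the 10 called genes with the largest increase and the 10 with the largest decrease (mean of at least 1 CPM, no predicted or sex-linked genes), and up to 4 members with the smallest p of each list. A list member that this rule names is counted but not reported here. List members that did not pass are named as examples chosen after their values were seen. Of 271 listed genes 270 were found, 1 of them by an older symbol. Alternatives were DESeq2, other factors, filters, terms, thresholds and subsets of libraries. The fits with an interaction of class with diet or sex, the diet fits with log2 Wfs1, CPM with TMM factors and the fit without FR1 and MR4 were added after seeing the data. Figures were drawn with Python 3.11.15 and matplotlib 3.10.9. Reads were not used.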

Additional observations from a re-analysis of the deposited data

Results flagged for a closer look

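Among the low Wfs1 libraries MR2 had 0.917 CPM of Cd44, where the other 6 had 2.14 to 3.32 CPM, and its gap to the nearest library was 0.628 of the whole range. It lay on the far side from the high libraries. This was 1 sample far from the others among 48 groups of libraries examined, where chance alone flags about 1 in 20.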

How the results depend on the processing

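The count of called genes (475) was within 1.5 times of the reported one with DESeq2, RLE factors, no filter on low counts, 3 classes over all 16 libraries, sex as a term, no diet or no batch term, batch 1 alone, female libraries alone, a covariate for the exon length slope or for mitochondrial reads, and both other pairs of thresholds. Of these pairs, 200 and 100 CPM took out FR4 alone, so that it is the same fit as the one without FR4 (494 called). The count of called genes was 177 per doubling of Wfs1 over 16 libraries (a fold per doubling is smaller by construction). It was 149 in control mice alone (6 libraries), 68 in rapamycin mice alone (8) and 236 in males alone (8). Female libraries alone (6) gave 321 and batch 1 alone (10) gave 444. Why these subsets differ was not tested. The count under the adjusted p alone (1047) was 1625 with DESeq2, 1934 with the exon length slope, 679 without the diet term and 519 without the batch term. It was 573 with thresholds of 160 and 140 CPM, 227 in control mice, 68 in rapamycin mice, 334 in females and 256 in males. The cause of these changes was not tested. Leaving out 1 library gave 329 to 520 called genes and 576 to 1218 under the adjusted p alone, and leaving out FR1 and MR4, added after seeing the data, gave 469 and 1030. The share of higher genes among called genes was 57.7%, and 66.2% in batch 1 alone, 69.5% per doubling of Wfs1 and 69.1% in rapamycin mice. Libraries of the same replicate number in different groups correlated from -0.157 to 0.675 (median 0.252), against a median of -0.100 for other pairs. Without removal of batch, 12 libraries correlated best with one of their own number. With batch removed the medians were 0.0293 and 0.0137. These values do not settle whether the replicate numbers pair the mice. With a replicate block in place of batch 161 genes were called and 171 had an adjusted p under 0.05. Of the log2 fold changes of named genes over the alternatives, 1687 kept direction and side of the threshold, 385 kept direction only and 0 reversed. The named genes were chosen on these same libraries, which the alternatives share in large part, so that the tally is a description. It counts the fit without FR4 again as that with thresholds of 200 and 100 CPM. The median position of the libraries left out was 0.589 over both, and between 0.530 and 0.633 in the other fits. Depth limits genes near 1 CPM, and 4 genes were listed but too low to test.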
